A study of Mus musculus with 8 samples.

Results

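The 10 genes described here belong to the antioxidant system: Nfe2l2, which encodes the transcription factor NRF2, and Nqo1, Gclc, Gclm, Txnrd1, Srxn1, Slc7a11, Sod2, Cat and Gpx1. They were chosen by gene symbol, and all 10 were found among the 22520 genes of the table. RNA sequencing was performed on 8 libraries of microvascular cells, 4 from mice lacking LRP1 (LRP1 KO) and 4 labelled Wild type (WT), to ask which genes change when LRP1, a receptor that binds and internalizes many ligands, is lost. According to the labels, every library came from C57BL/6 mice at postnatal day 14 and held microvascular cells of the lung, heart and liver together. According to the study's methods, endothelial cells were selected with beads carrying an antibody to PECAM-1. The same methods give LRP1 f/f; Cdh5-CreER+/- as the genotype of the knockout mice and LRP1 f/f; Cdh5-CreER-/- as that of the controls, so that both groups carried floxed LRP1 alleles, only the knockout mice carried the Cre, and the Cre was driven by the promoter of Cdh5, an endothelial gene. The study describes endothelial cells of the liver and those of heart and lung as separate preparations, whereas the labels name 1 mixture, which was followed here; which organs each library held cannot be told apart. Nothing in the labels says whether the libraries of a group came from separate mice or pools, and p-values measure only the spread between these libraries, which may be technical.

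NRF2 is held at a low level by KEAP1, which directs it to degradation. Oxidants and electrophiles modify KEAP1, and NRF2 then accumulates, pairs with small MAF proteins and binds the antioxidant response element near its target genes. NRF2 activity is set mostly at the level of the protein, and its targets supply glutathione, reduced thioredoxin and detoxifying enzymes. Nqo1, Gclc, Gclm, Txnrd1, Srxn1 and Slc7a11 are well known targets of NRF2. Sod2, Cat and Gpx1 encode enzymes that remove superoxide and hydrogen peroxide and are also under other controls.

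Promoter sequences are shown for the factor itself, for a target whose libraries did not overlap between groups, for a target whose reading of the motif depends on the start site, and for the gene that passed the test. Sequences were taken from RefSeq (GRCm38.p6), where 9 of the 10 genes matched, the exception being Gclc. Each is given 5′ to 3′ in the direction of transcription, up to 250 bases before the start and without annotated exons of the gene itself. Capitals mark a match to TGACNNNGC, the core letters of the antioxidant response element, on either strand. No other motif was searched.
Nfe2l2 (chr2:75704664-75704913, minus strand): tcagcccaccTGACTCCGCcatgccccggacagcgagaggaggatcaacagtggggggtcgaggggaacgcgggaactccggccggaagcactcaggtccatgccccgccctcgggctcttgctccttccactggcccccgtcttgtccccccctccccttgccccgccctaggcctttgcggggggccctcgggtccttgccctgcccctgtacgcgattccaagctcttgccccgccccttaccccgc
Gclm (chr3:122245307-122245556, plus strand): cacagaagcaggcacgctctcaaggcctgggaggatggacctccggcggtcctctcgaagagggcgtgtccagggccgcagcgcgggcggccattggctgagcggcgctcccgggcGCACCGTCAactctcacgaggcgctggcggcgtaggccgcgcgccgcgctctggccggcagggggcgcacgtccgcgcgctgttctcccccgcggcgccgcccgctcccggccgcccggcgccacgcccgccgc
Txnrd1, the second of its RefSeq starts (chr10:82858956-82859178, plus strand): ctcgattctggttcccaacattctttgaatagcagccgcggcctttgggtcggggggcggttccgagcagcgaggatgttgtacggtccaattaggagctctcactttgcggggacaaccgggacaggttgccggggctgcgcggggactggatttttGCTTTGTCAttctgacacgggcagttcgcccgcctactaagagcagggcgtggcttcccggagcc
Sod2 (chr17:13007589-13007816, plus strand): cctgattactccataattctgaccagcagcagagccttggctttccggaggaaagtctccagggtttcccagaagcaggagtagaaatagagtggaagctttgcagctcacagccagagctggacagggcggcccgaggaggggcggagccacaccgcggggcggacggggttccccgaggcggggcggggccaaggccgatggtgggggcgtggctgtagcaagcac
The match began at position -240 from the start in Nfe2l2 (TGACTCCGC), at -134 in Gclm (GCACCGTCA, the motif on the other strand) and at -92 in Txnrd1 (GCTTTGTCA, also on the other strand). Another match lay at position 29 after the start of Srxn1. The windows of Nqo1, Slc7a11, Sod2, Cat and Gpx1 held no match, which says only that these letters were not in these windows. Of the 9 genes, 4 had a match in a window of 250 bases before to 50 after a start (44.4%), against 14.0% of the 27025 genes with such a window. The list is small and its genes were chosen with results known, so these shares are given without a test.

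Values are FPKM, which corrects fragment numbers for the length of the transcript and the size of the library, quantile normalized across the libraries in the deposited table. The sum per library ran from 503571 to 504112, the highest value was 7793 in all 8 libraries, and the sequencing depth is therefore unknown. Lrp1 itself was measured at 112.7, 140.4, 103.2 and 124.2 FPKM across the WT libraries, and fell to 3.45, 5.20, 2.79 and 7.72 across the LRP1 KO libraries, a KO mean of 3.99% of WT (log2 fold change -4.45, SE 0.23, limma adjusted p = 8.89e-05). Each of the 12 endothelial markers examined had a WT mean of at least 1 FPKM, but their summed level in WT was 168.5 to 182 FPKM, against 2666 to 3940 for 8 fibroblast markers. The endothelial sum was 606, 386, 450 and 175 FPKM in LRP1 KO libraries 1 to 4, so that library 4 was within the WT range while the other 3 were above it. Of the 12 endothelial markers 1 was called higher (8.33%, against 6.27% of all tested genes). The count was 11 when LRP1 KO library 4 was left out, where 12.6% of all tested genes were called higher. It was 0 when any other 1 library was left out, where that share was 2.46% to 4.14%. The macrophage sum was 89.2 to 112 FPKM in WT and 229 to 558 in LRP1 KO, where Lyz2 alone held 129 to 334. Of the 10 tested markers 8 were higher, where 6.27% of all tested genes were, and Fcgr1 was at 0 in 3 WT libraries. Cd14 went the other way, at 37.3 ± 8.4 FPKM in WT and 26.9 ± 7.4 in LRP1 KO (SD, n = 4, limma adjusted p = 0.136). Without LRP1 KO library 4, 7 markers were called higher and 1 lower. Of the 8 called higher with all libraries, Adgre1, Mrc1 and C1qc needed the KO libraries to reach the filter. Hepatocyte markers summed to at most 1.61 FPKM in any library. On the first principal component, which held 60.8% of the variance, LRP1 KO library 4 lay at 0.102, between the other KO libraries (17.2 to 27.3) and WT (-24.1 to -12.9). The sum of 4 Y-linked genes was under 1 FPKM in 1 library of each group, WT library 4 and LRP1 KO library 2. Because these are bulk samples, fewer cells of a type and less RNA per cell cannot be told apart.

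Among the 10 genes, Sod2 was the only one past the test, and it was lower in LRP1 KO, at 79.2% of WT. Gclm stood at 83.8% of WT with no overlap between groups but narrowly missed the threshold. Gclc, Cat and Txnrd1 had KO means of 110 to 113% of WT without passing it, and Nfe2l2, Nqo1, Srxn1 and Gpx1 had KO means of 94.4 to 99.0% of WT. Slc7a11 was too low to be tested. Tests were made with limma on log2(FPKM + 1) for genes of at least 1 FPKM in at least 4 libraries, with Benjamini-Hochberg adjusted p under 0.05 as the threshold, so that fold changes of low genes are understated. In all, 13.6% of 11389 tested genes passed, 7.31% lower and 6.27% higher, so that 1 of 9 tested genes (11.1%) is a share near the background. None of the 9 was higher, at the adjusted or at an unadjusted p under 0.05 in limma. At the unadjusted threshold 2 were lower, Sod2 and Gclm, where 33.7% of all tested genes passed in either direction.

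**Figure D1:**
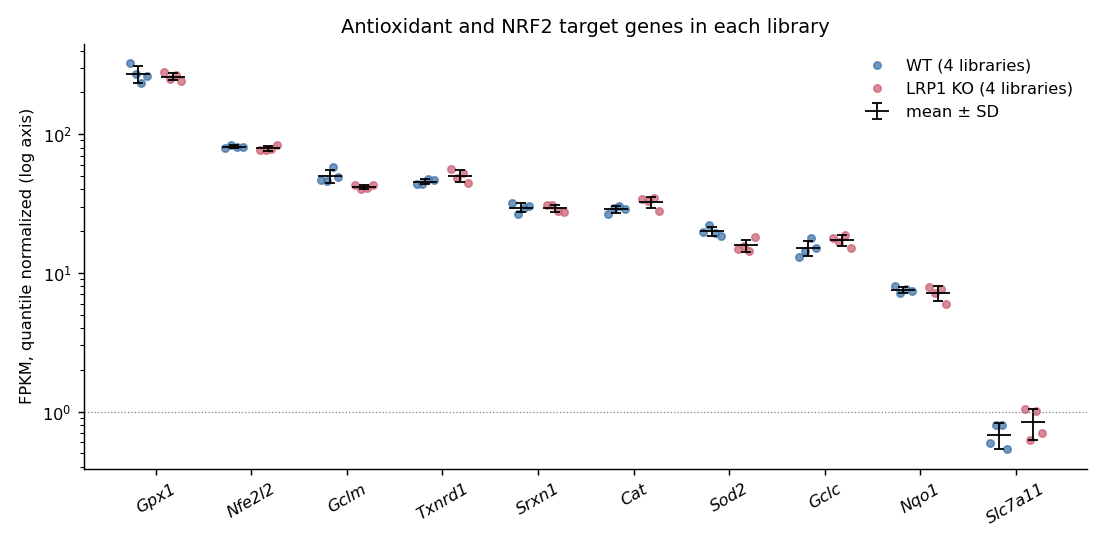
FPKM (log axis) of the 10 genes in each of 4 WT and 4 LRP1 KO libraries, ordered by WT mean; points are libraries, bars are mean ± SD, and the dotted line marks the filter at 1 FPKM. Levels ran from 273 FPKM for Gpx1 to 0.683 for Slc7a11 in WT, and the groups were apart in Gclm and Sod2 but overlapped in the other 8.

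Nfe2l2 (ENSMUSG00000015839, chr2:75675513-75704641, minus strand) was measured at 78.9, 83.0, 81.3 and 81.2 FPKM in WT, against 76.7, 76.7, 78.3 and 83.7 in LRP1 KO. The groups overlapped, with the highest of all 8 values in LRP1 KO library 4 and the other 3 KO libraries below every WT library. The difference was -0.04 (log2, SE 0.05, 95% interval -0.15 to 0.07, limma adjusted p = 0.585), which is a range of -9.84% to 4.83% on the scale of FPKM + 1. Of the 9 tested genes here, Nfe2l2 varied least among WT libraries, with a coefficient of variation of 2.09% against a median of 9.52% over all tested genes. Its mean of 81.1 ± 1.70 FPKM (SD, n = 4) lay at the 91.3rd percentile of genes with a WT mean of at least 1 FPKM.

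None of the 5 tested targets passed the test, and at an unadjusted p under 0.05 only Gclm was lower. Nqo1, a quinone reductase often used as a readout of NRF2, was at 8.05, 7.16, 7.68 and 7.34 FPKM in WT, against 7.88, 7.10, 7.63 and 5.93 in LRP1 KO. KO libraries 1 to 3 sat among the WT libraries or just under the lowest of them, and library 4 was lowest. The difference was -0.08 (log2, SE 0.09, limma adjusted p = 0.560) and was -0.00337 without LRP1 KO library 4. Srxn1, the sulfiredoxin that repairs overoxidized peroxiredoxins, was at 32.0, 26.7, 29.4 and 30.2 FPKM in WT, against 30.7, 30.8, 28.1 and 27.5 in LRP1 KO. All KO values lay inside the WT range, and the sign of the small difference (-0.01, SE 0.07, limma adjusted p = 0.913, 95% interval -0.17 to 0.14) changed with the choice of libraries.

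Gclc and Gclm encode the catalytic and the modifier subunit of glutamate-cysteine ligase, the rate-limiting enzyme of glutathione synthesis. Neither passed the test. Gclc was at 13.1, 14.45, 17.8 and 15.1 FPKM in WT, against 17.8, 16.75, 18.75 and 15.2 in LRP1 KO. Each KO library was above 3 of the 4 WT libraries, and KO library 3 was above all 4, so that the groups overlapped. The difference was 0.17 (log2, SE 0.10, 95% interval -0.05 to 0.39, limma adjusted p = 0.238). Gclm (ENSMUSG00000028124, chr3:122245557-122270732, plus strand) was at 46.5, 45.8, 58.0 and 49.5 FPKM in WT, against 42.9, 40.4, 41.0 and 43.2 in LRP1 KO. All 4 KO libraries were under the lowest WT library, and the 4 KO values were close together (41.9 ± 1.38 FPKM, SD, n = 4, against 49.95 ± 5.62 in WT). The difference was -0.24 (log2, SE 0.08, 95% interval -0.42 to -0.07), with a limma adjusted p of 0.0618 and an exact two-sided permutation p of 0.0286, the smallest that 4 against 4 libraries allow. Groups that did not overlap, lower in LRP1 KO, made up 10.7% of tested genes and those that were higher 8.84% (19.6% in either direction), and Gclm and Sod2 were the 2 lower ones here, with none higher.

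The ratio of Gclm to Gclc, which was chosen after the values were seen and is given without a test, was 3.55, 3.17, 3.26 and 3.28 in WT and 2.41, 2.41, 2.18 and 2.84 in LRP1 KO. Every KO library had a lower ratio than every WT library, with means of 2.46 ± 0.275 and 3.31 ± 0.162 (SD, n = 4). Gclm overlaps an antisense gene, Gm17494, and a pseudogene on its own strand, Gm6061. The counting is not stated to use strand, so reads of these genes cannot be told apart.

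Slc7a11, the light chain of the cystine importer that feeds glutathione synthesis, was the lowest of the 10 genes. It was at 0.590, 0.807, 0.801 and 0.533 FPKM in WT, against 1.04, 0.622, 1.003 and 0.696 in LRP1 KO, with overlapping groups. It did not pass the filter, and its exact two-sided permutation p was 0.314. Txnrd1, the cytosolic thioredoxin reductase, was at 43.6, 43.75, 47.35 and 46.9 FPKM in WT, against 56.3, 48.0, 52.3 and 44.1 in LRP1 KO. The KO libraries 1 to 3 lay above every WT library, and library 4 lay within the WT range. Txnrd1 overlaps Eid3, a protein-coding gene on its own strand, so reads from the overlap are uncertain. The difference was 0.14 (log2, SE 0.08, 95% interval -0.04 to 0.31, limma adjusted p = 0.242), and 0.19 without LRP1 KO library 4 (adjusted p = 0.0637).

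Among the enzymes that remove superoxide and peroxide, Sod2, the manganese superoxide dismutase of mitochondria (ENSMUSG00000006818, chr17:13006846-13040063, plus strand), was at 19.7, 22.0, 19.5 and 18.4 FPKM in WT, against 14.9, 15.7, 14.4 and 17.99 in LRP1 KO. The groups did not overlap, but LRP1 KO library 4 came close to the lowest WT library. The means were 19.9 ± 1.54 and 15.8 ± 1.57 FPKM (SD, n = 4), a difference of -0.32 (log2, SE 0.08, 95% interval -0.50 to -0.14, limma adjusted p = 0.0336), with an exact two-sided permutation p of 0.0286. The call depended on single libraries: the adjusted p rose to 0.0672, 0.0930 and 0.0601 without WT libraries 1, 2 and 3, and to 0.0978, 0.0835 and 0.0991 without LRP1 KO libraries 1, 2 and 3. It was 0.0456 without WT library 4 and 0.00682 without LRP1 KO library 4, where the difference was -0.38. Over those 8 fits the difference stayed between -0.38 and -0.27. The KO library with the highest Sod2 was the one with the endothelial marker sum of 175 FPKM, and the other 3, at 386 to 606, had the lowest Sod2; the part of cell composition in the difference was not tested.

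Cat, the catalase of peroxisomes, was at 26.4, 29.3, 30.5 and 28.8 FPKM in WT, against 34.2, 32.8, 34.5 and 28.1 in LRP1 KO. KO libraries 1 to 3 lay above every WT library, while library 4 lay below 3 of the 4 WT libraries. The difference was 0.16 (log2, SE 0.08, 95% interval -0.01 to 0.34, limma adjusted p = 0.163). Without LRP1 KO library 4 it was 0.23 and passed the threshold (SE 0.06, limma adjusted p = 0.0282), in a fit in which 26.5% of all tested genes passed, with 12.6% of all tested genes higher. Gpx1, the main glutathione peroxidase of the cytosol, was at 324, 270.3, 235 and 262 FPKM in WT, against 279, 250.5, 265 and 243 in LRP1 KO. The KO values all lay inside the WT range, and the difference was -0.07 (log2, SE 0.09, 95% interval -0.28 to 0.15, limma adjusted p = 0.659).

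**Figure D2:**
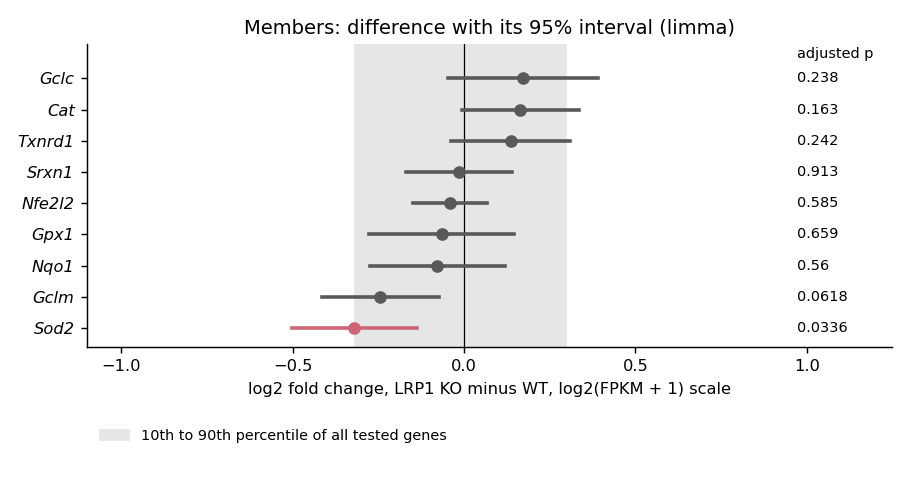
Log2 fold change (LRP1 KO minus WT, on log2(FPKM + 1)) of the 9 tested genes with 95% intervals from limma and adjusted p at the right; the grey band holds the 10th to 90th percentile of all tested genes, -0.32 to 0.30. The intervals of Sod2 and Gclm lie below 0, and the adjusted p was 0.0336 for Sod2 and 0.0618 for Gclm.

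The size of the differences was that of genes in general. The median of the absolute log2 fold change was 0.14 over the 9 tested genes and 0.14 over all tested genes, and the signed medians were -0.04 and -0.01. In WT the order by mean FPKM was Gpx1, Nfe2l2, Gclm, Txnrd1, Srxn1, Cat, Sod2, Gclc, Nqo1 and Slc7a11. The ranges of Gclm and Txnrd1 overlapped, as did those of Srxn1 and Cat, and every other pair of neighbours was apart. Gpx1 was 36.1 times as high as Nqo1, on the scale of FPKM. In LRP1 KO the means of Gclm and Txnrd1, of Srxn1 and Cat, and of Sod2 and Gclc changed places.

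LRP1 KO library 4 was the highest or the lowest KO library for all 9 tested genes, lowest for 6 and highest for 3, and for 7390 of all 11389 tested genes. It was the KO library toward the WT side for 6 of the 9 (66.7%), against 53.2% of all tested genes. Its values for Sod2, Cat and Txnrd1 were the ones nearest WT, and its value for Nqo1 was the one farthest from it.

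**Figure D3:**
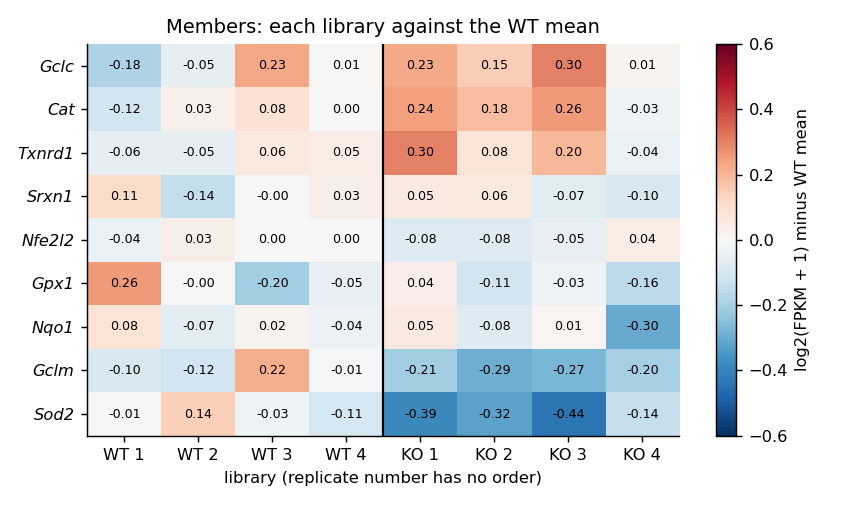
Each library's log2(FPKM + 1) minus the WT mean for the 9 tested genes, ordered by the difference between groups, with red above and blue below the WT mean. Sod2 and Gclm are below it in all 4 LRP1 KO libraries, Gclc is above it in all 4, and Cat and Txnrd1 are above it in LRP1 KO libraries 1 to 3.

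Further genes of the antioxidant system were read from 10 lists by role, 94 genes in all, of which 92 were in the table and 83 were tested. In LRP1 KO 14 of the 83 were lower and 4 higher by the same limma test, 21.7% against 13.6% of all tested genes. Of these calls 3 (1 lower and 2 higher) reached the filter only through the group where they were high, and those named are given without a test. The lower calls numbered 9, 5 and 9 without WT libraries 1, 2 and 4, where 3.64%, 2.04% and 4.71% of all tested genes were called lower. They numbered 6 without LRP1 KO library 1, 2 or 3 (2.23%, 2.09% and 2.17% of all tested genes) and 21 without LRP1 KO library 4 (13.9%). The higher calls numbered 12 without LRP1 KO library 4, where 12.6% of all tested genes were called higher. The median log2 fold change of the 83 was -0.05.

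The glutathione peroxidases and transferases held 8 of the 14 lower calls. Of 17 tested genes 8 were lower (47.1%, against 7.31% of all tested genes) and none was higher, with a median log2 fold change of -0.32. Rescaling by median ratios gave 7 lower and 1 higher. At an unadjusted p under 0.05, which 33.7% of all tested genes passed, the list had 12 lower and 1 higher. Leaving out 1 library at a time gave from 4 to 11 lower genes, with 11 without LRP1 KO library 4, 5 without WT library 1, and 4 without WT library 2 or without LRP1 KO library 1, 2 or 3. The share of all tested genes called lower moved with it, from 2.04% to 13.9% in these fits. These enzymes attach glutathione to electrophiles or use it to reduce peroxides. Gsta4, whose product detoxifies the lipid peroxidation product 4-hydroxynonenal, was at 74.0, 72.5, 53.9 and 57.8 FPKM in WT, against 23.6, 28.2, 24.9 and 33.6 in LRP1 KO. The groups were far apart, and the difference was -1.20 (log2, SE 0.13, limma adjusted p = 0.00134). Gsta3, another alpha class transferase, was at 67.2, 89.5, 72.6 and 66.6 FPKM in WT, against 21.5, 27.6, 21.9 and 42.1 in LRP1 KO (difference -1.40, SE 0.20, limma adjusted p = 0.00404). LRP1 KO library 4 was again the one nearest WT. The other 6 lower genes, named after their values were seen, were Gstm2, Gstm5, Gstt1, Gstt2, Mgst2 and Mgst3, with differences from -1.13 for Mgst2 to -0.27 for Gstm5. The abundant Mgst1 and Gstp1 had differences of -0.30 and -0.35 with limma adjusted p of 0.0894 and 0.0939. Of 8 fibroblast markers 2 were lower (25%, against 7.31% of all tested genes). These were Pdgfra (difference -0.96, limma adjusted p = 0.0367) and Dpt (-2.01, limma adjusted p = 0.0331), both with LRP1 KO library 4 nearest WT. The fibroblast count was 0 without any 1 of the other 7 libraries (2.04% to 4.71% of all tested genes lower). It was 4 without LRP1 KO library 4 (13.9%). The summed level was 2666 to 3940 FPKM in WT and 2415 to 3576 in LRP1 KO. Of 7 tested mural cell markers 3 were higher (Acta2, Tagln and Des), where 6.27% of all tested genes were. Without LRP1 KO library 4 there were 5, with 12.6% of all tested genes higher. Pdgfrb went the other way (difference -0.31, limma adjusted p = 0.221), and Rgs5 was too low to be tested. The mural sum, mostly Acta2 and Tagln, was 667 to 832 FPKM in WT and 1032 to 1617 in LRP1 KO. The part of these cells in the lower transferases was not tested. Gsta and Gstm genes belong to families of related sequence, whose sharing was not measured here, and Gsta3 overlaps an antisense gene, so how reads were divided is uncertain.

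**Figure D4:**
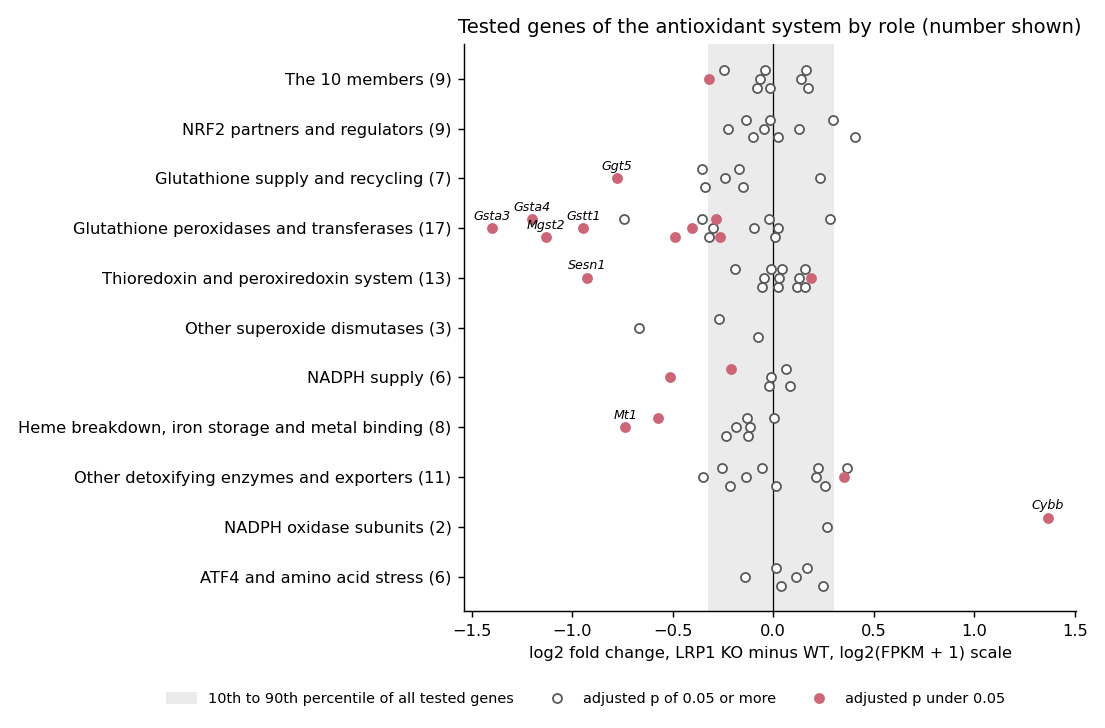
Log2 fold change (LRP1 KO minus WT, on log2(FPKM + 1)) of the tested genes of each list, with the number shown in brackets; filled points passed an adjusted p of 0.05, and the grey band is the 10th to 90th percentile of all tested genes. Of the 10 genes only Sod2 is filled, while 8 of the 17 glutathione peroxidases and transferases are filled to the left and Cybb, which passed the filter through the KO libraries alone, lies farthest to the right.

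None of the 9 partners and regulators of NRF2 passed the test in limma, where 2 were higher and 1 lower at an unadjusted p under 0.05, a share of the list close to the 33.7% of all tested genes. Without LRP1 KO library 4, where 26.5% of all tested genes passed, 2 were called higher and 1 lower. Mafk, a small MAF partner of NRF2 with the largest difference of the list (named after its value was seen), was at 21.75, 23.8, 25.2 and 26.2 FPKM in WT, against 36.9, 33.0, 36.9 and 24.5 in LRP1 KO, where library 4 alone lay within the WT range (difference 0.41, SE 0.13, limma adjusted p = 0.0595). Nfe2l1, the related factor NRF1, was at 87.5 ± 10.1 FPKM in WT and 95.4 ± 6.28 in LRP1 KO (SD, n = 4, limma adjusted p = 0.318). Sqstm1, the p62 adaptor that can displace KEAP1, was at 266 ± 34.5 and 256 ± 7.19 FPKM (limma adjusted p = 0.744). Keap1, named after its value was seen, was at 16.8 ± 0.874 and 15.2 ± 1.38 FPKM (limma adjusted p = 0.219).

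In the glutathione supply list no call can be read as a test result. The 1 of 7 tested genes past the threshold (14.3%, against 13.6% of all tested genes) was Ggt5, a gamma-glutamyl transferase of the cell surface. Ggt5 was at 1.35, 2.42, 1.84 and 1.73 FPKM in WT, against 0.199, 0.790, 0.457 and 1.30 in LRP1 KO. It had at least 1 FPKM in all WT libraries and in only 1 KO library, so that it reached the filter through the group where it was high. Its values are therefore given without a test. On the log2 scale the difference was -0.78 with a pseudocount of 1 and -1.49 with 0.1. Slc3a2, the heavy chain partner of the cystine importer, was at 79.8 ± 14.1 and 70.4 ± 8.27 FPKM (limma adjusted p = 0.346). Glrx, glutaredoxin, was at 29.4 ± 1.22 and 23.0 ± 3.87 FPKM (limma adjusted p = 0.0532), and its adjusted p was 0.00749 without LRP1 KO library 4.

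Of 13 genes of the thioredoxin and peroxiredoxin system 1 was lower and 1 higher (15.4%, against 13.6% of all tested genes). Sesn1, a sestrin that restrains growth signaling under stress, was at 36.1, 37.6, 32.3 and 33.9 FPKM in WT, against 15.4, 16.5, 15.7 and 25.9 in LRP1 KO. The KO mean was 52.5% of WT (difference -0.92, SE 0.15, limma adjusted p = 0.00721), and LRP1 KO library 4 stood apart from the other 3. Prdx3, the peroxiredoxin of mitochondria, was at 32.5 ± 1.52 FPKM in WT and 37.1 ± 0.746 in LRP1 KO (difference 0.19, SE 0.05, limma adjusted p = 0.0418), and the adjusted p was 0.0782 to 0.115 without WT library 2, 3 or 4 or LRP1 KO library 1, 2 or 3. Prdx1 was at 509 ± 19.6 and 554 ± 41.1 FPKM (limma adjusted p = 0.226, and 0.0475 without LRP1 KO library 4), and Prdx5 at 279 ± 23.4 and 270.1 ± 18.7 FPKM (limma adjusted p = 0.702).

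The other 2 superoxide dismutases and the copper chaperone Ccs were not called in limma. Both dismutases were lower at an unadjusted p under 0.05, which 33.7% of all tested genes passed in either direction. Leaving out WT library 3 or LRP1 KO library 4 gave 1 lower call each, where 4.13% and 13.9% of all tested genes were called lower. Sod1, the copper and zinc enzyme of the cytosol, was at 353, 336, 283 and 307 FPKM in WT, against 276, 261, 239 and 284 in LRP1 KO. The groups overlapped at 1 library each, and the difference was -0.27 (log2, SE 0.08, limma adjusted p = 0.0594, and 0.0323 without LRP1 KO library 4). Sod3, the extracellular enzyme (named after its value was seen), was at 17.8 ± 4.68 and 11.2 ± 4.18 FPKM (limma adjusted p = 0.142). Ccs, which loads copper into SOD1, was at 27.5 ± 2.67 and 26.0 ± 1.70 FPKM (limma adjusted p = 0.511).

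Among 6 enzymes that supply NADPH, Idh1 and Tkt were lower, where 7.31% of all tested genes were. Idh1, the cytosolic isocitrate dehydrogenase, was at 107 ± 15.4 and 74.5 ± 7.68 FPKM (difference -0.52, SE 0.11, limma adjusted p = 0.0191). Tkt, transketolase, was at 68.6 ± 2.61 and 59.2 ± 3.14 FPKM (difference -0.21, SE 0.05, limma adjusted p = 0.0369). The limma adjusted p of Idh1 was 0.0550 to 0.0569 without WT library 2 or LRP1 KO library 1, 2 or 3, and that of Tkt 0.0538 to 0.115 without any 1 library other than LRP1 KO library 4. Taldo1 was at 167 ± 27.2 and 175.5 ± 17.2 FPKM (limma adjusted p = 0.637).

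In the list of heme breakdown, iron storage and metal binding, the metallothioneins Mt1 and Mt2 were the 2 lower genes of 8, against 7.31% of all tested genes called lower. Mt1 was at 3230, 3230, 2624 and 2866 FPKM in WT, against 1562, 1696, 1589 and 2421 in LRP1 KO (difference -0.74, SE 0.14, limma adjusted p = 0.0147, and 0.0503 without WT library 2). Mt2 was at 2792 ± 209 and 1916 ± 491 FPKM (difference -0.57, SE 0.15, limma adjusted p = 0.0398), and its adjusted p was 0.0644 to 0.111 without any 1 library other than LRP1 KO library 4. Equal values, such as 3230 in a pair of WT libraries, follow from quantile normalization, which gives genes of the same rank the same value. For Fth1, ferritin heavy chain, all 4 WT libraries held 6571 FPKM, and the KO libraries held 5692, 5692, 4582 and 6571 (limma adjusted p = 0.153, and 0.0334 without LRP1 KO library 4). Ftl1 was at 3683 ± 648 and 3340 ± 128 FPKM (limma adjusted p = 0.470). Hmox1, heme oxygenase 1 and a target of NRF2 (named after its value was seen), was at 417 ± 31.4 and 366 ± 23.1 FPKM (limma adjusted p = 0.103).

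Of 11 other detoxifying genes 1 was higher (9.09%, against 6.27% of all tested genes). Akr1b8, an aldo-keto reductase, was at 27.8, 29.5, 29.95 and 30.9 FPKM in WT, against 36.04, 42.9, 35.2 and 37.9 in LRP1 KO. No value overlapped, and the difference was 0.35 (log2, SE 0.07, limma adjusted p = 0.0160). Akr1b3 was at 67.0 ± 4.27 and 88.4 ± 20.8 FPKM (limma adjusted p = 0.114, and 0.0113 without LRP1 KO library 4), and Ephx1 at 219.9 ± 9.997 and 200.1 ± 7.73 FPKM (limma adjusted p = 0.115). In the ATF4 list, which covers the amino acid stress response that also controls Slc7a11, no gene of 6 passed in limma and 1 was higher at an unadjusted p under 0.05. Of all tested genes, 13.6% passed the adjusted and 33.7% the unadjusted threshold in either direction. Atf4 was at 167 ± 23.8 and 150.1 ± 5.20 FPKM, and Phgdh at 149 ± 5.24 and 153 ± 7.40 FPKM, with limma adjusted p of 0.303 and 0.627.

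The oxidant-producing side was measured through the NADPH oxidase subunits. Cybb, the catalytic subunit of the phagocyte oxidase, was at 0.0645, 0.195, 0.387 and 0.186 FPKM in WT, against 2.17, 2.63, 1.30 and 2.49 in LRP1 KO. It passed the filter through the KO libraries alone, since every WT value was under 1, and its values are therefore given without a test. On the log2 scale the difference was 1.37 with a pseudocount of 1 and 2.93 with 0.1. Beside it, 8 of 10 tested macrophage markers were higher, where 6.27% of all tested genes were, and Cd14 went the other way. Of the higher ones, Adgre1, Mrc1 and C1qc needed the KO libraries to reach the filter. The macrophage sums were 89.2 to 112 FPKM in WT and 372, 558, 229 and 508 in LRP1 KO libraries 1 to 4. In a further list of leukocyte markers 4 of 5 tested were higher, Itgb2, Cd52, Laptm5 and S100a8. All of these but Itgb2 needed the KO libraries to reach the filter. The leukocyte sums were 4.22 to 5.51 FPKM in WT and 16.8 to 30.6 in LRP1 KO. S100a9 and Cd3e were listed at 0, and Cd79a had means of 0.0423 FPKM in WT and 0.0332 in LRP1 KO. The lowest Cybb among the KO libraries and the lowest macrophage sum were both in library 3. The part of macrophages in the difference of Cybb was not tested. Nox4, the oxidase subunit that endothelial cells express themselves, was at 6.00 ± 1.97 and 7.19 ± 1.21 FPKM (limma adjusted p = 0.392).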

How the data were processed

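RNA was sequenced from 4 LRP1 KO and 4 WT libraries, grouped by their titles. The deposited table holds 1 value per gene and library, taken to be FPKM: per the labels, the submitters' processing notes name TopHat2, Cufflinks and mm10, while the study's methods describe STAR and featureCounts, and the table's header names no unit. The authors quantile normalized the FPKM values before deposit (sorted values of at least 1 differed between libraries by a median of 0.575%), which removes depth, hides a global shift and gives ties. No interval for counting error could be computed.

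Genes with at least 1 FPKM in at least 4 libraries (11389 of 22520) were fitted on log2(FPKM + 1) with limma 3.58.1 in R 4.3.3, with group as the only term, a variance trend and Benjamini-Hochberg adjustment over all tested genes, and called at an adjusted p under 0.05. The fit was tested on simulated data. Exact two-sided permutation tests used all 70 splits into 4 and 4 libraries (scipy 1.17.1). Alternatives were a pseudocount of 0.1, no filter, rescaling by median ratios, a replicate block, no variance trend, array weights and leaving out each library. The 10 genes and all lists were chosen with earlier results of these data known. Named from each other list were the 2 tested genes highest in WT and the 2 called genes with the largest change, and any others are said to be named after their values were seen. Of the genes so named, 1 is left out of the text and the plot by role, though list counts include it. The study's methods used counts with a count-based test, which FPKM do not allow. Gene positions are from GENCODE M21 (GRCm38), and promoters from RefSeq (GRCm38.p6).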

Additional observations from a re-analysis of the deposited data

Results flagged for a closer look

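In 3 of 80 groups of 4 libraries examined, over 40 genes, 1 library lay far from the other 3, with a gap above Dixon's critical share of the group's range for 4 values; chance gives such a gap in about 1 in 20 groups. All 3 were in LRP1 KO. Sesn1 was at 25.9 FPKM in LRP1 KO library 4 and at 15.4, 16.5 and 15.7 in the others. Mt1 was at 2421 FPKM in LRP1 KO library 4 and at 1562, 1696 and 1589 in the others. Nox4 was at 8.98 FPKM in LRP1 KO library 3 and at 6.499, 6.44 and 6.83 in the others. None of the 10 genes of the report had such a library.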

How the results depend on the processing

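Of the 10 genes, 1 was called lower and 0 higher. The lower count was 0 with no filter on low values and 2 with array weights (Sod2 and Gclm, limma adjusted p = 0.0231), and the higher count was 1 with array weights (Cat, limma adjusted p = 0.0458). Leaving out 1 library gave 0 to 1 lower and 0 to 1 higher. With the replicate number as a block, the lower count was 0 and the genes past the threshold fell from 1547 to 1013. The deviations of same-numbered libraries had correlations of 0.158, 0.141, 0.340 and -0.312. These are of mixed sign, so that pairing by number is neither shown nor excluded. Whether the block is the right model cannot be told. With the block the limma adjusted p of Sod2 was 0.0662. Array weights gave 3003 genes, and leaving out 1 library gave 512 (without WT library 2) to 3021 (LRP1 KO library 4 left out). Of the other antioxidant genes 4 were higher and 14 lower; array weights gave 13 and 22, and leaving out 1 library gave 3 to 12 and 5 to 21. Sod2 kept its direction in all 14 alternatives and lost the call in 8, with limma adjusted p from 0.00682 to 0.0991. Gsta3, Gsta4, Sesn1 and Akr1b8 kept their calls in all 14. Signs changed in genes that were never called: Srxn1 had log2 fold changes of 0.00197 with rescaling, 0.00070 with array weights, and -0.0608 to 0.0235 when 1 library was left out (above 0 without WT library 1 and, at 0.00536 and 0.0143, when LRP1 KO library 3 or 4 was left out). Leaving out 1 library gave -0.133 to 0.0206 for Gpx1 (above 0 without WT library 1), -0.0956 to 0.0344 for Sqstm1 (above 0 without WT library 2) and -0.0885 to 0.00485 for Prdx5 (above 0 without WT library 1). No scaling moved the median of all genes by over 0.1. Depth is unknown, so what it limits cannot be given; Slc7a11 is the gene nearest the floor.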
